A study of Mus musculus with 30 samples.

Results

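The 10 genes described here encode UDP-glucuronosyltransferases of the Ugt2 and Ugt3 families, namely Ugt2a3, Ugt2b1, Ugt2b5, Ugt2b34, Ugt2b35, Ugt2b36, Ugt2b37, Ugt2b38, Ugt3a1 and Ugt3a2. They were taken by gene symbol from a liver RNAseq count table of 55487 genes, a rule that uses the symbol alone. All 30 livers came from male C57BL/6 mice, 8 weeks old at the start, kept on their diet for 6 weeks and given an antibody 2 times per week over the last 2 weeks. Mice on the methionine and choline deficient diet (MCD), a feed that brings on steatohepatitis, received either a monoclonal antibody that neutralizes acyl-CoA binding protein, also known as diazepam-binding inhibitor (MCD anti-DBI, n = 10), or a mouse IgG2a isotype control (MCD IgG, n = 10). Mice on regular chow diet (RCD) received the same antibodies (RCD anti-DBI, n = 5, and RCD IgG, n = 5). No genotype differed between the groups. RCD is a chow and not the deficient feed with methionine and choline put back, so a diet comparison takes in every difference between the feeds. The labels do not say more about separate animals than a replicate number, and the p values measure the spread between these livers.

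UDP-glucuronosyltransferases sit in the membrane of the endoplasmic reticulum, where they join a sugar, mostly glucuronic acid from UDP-glucuronic acid, to lipophilic compounds such as steroids, bile acids, bilirubin and drugs. The product is more soluble in water and leaves the hepatocyte through export pumps into bile or blood. Ugt1 enzymes arise from 1 locus with alternative first exons, whereas most Ugt2 enzymes have a gene each. The human UGT3 enzymes are known to use sugars other than glucuronic acid.

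Of the 10 genes, 8 lie in a cluster of 534.4 kb on chromosome 5 (86889767 to 87424203, GRCm38, as given in the count table). Along the chromosome they run Ugt2b34, Ugt2b1, Ugt2b35, Ugt2b36, Ugt2b5, Ugt2b37, Ugt2a3 and Ugt2b38, with Ugt2b35 on the plus strand and the other 7 on the minus strand. Ugt3a1 and Ugt3a2 are neighbours on the plus strand of chromosome 15 (9276888 to 9370955). The symbols of this last pair are exchanged in a later annotation. Here Ugt3a1 is ENSMUSG00000072664 and Ugt3a2 is ENSMUSG00000049152, as in the count table, and no separate role is given to either.

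Several members are close copies. In the canonical transcripts of a later Ensembl annotation, matched by gene identifier, Ugt2b5 and Ugt2b38 had 95.8% identical bases over their alignment, Ugt2b5 and Ugt2b37 93.6%, Ugt2b37 and Ugt2b38 93.5%, and Ugt3a1 and Ugt3a2 92.2%. Of all windows of 50 bases in a transcript, 37.4% of those in Ugt2b38, 31.0% in Ugt2b5 and 18.3% in Ugt2b37 also occurred in a transcript of another gene, against 9.38% in Ugt3a1, 9.39% in Ugt3a2 and 0% to 4.34% in the other members. The reads were longer than these windows. How reads that matched several genes were counted is not given in the sources used here, so counts of Ugt2b5, Ugt2b37 and Ugt2b38 are uncertain to that extent. At the low end of Ugt2b38, the library MCD IgG 7 held 1 count of it beside 5160 counts of Ugt2b5. That bears only on reads of Ugt2b5 counted as Ugt2b38, and not on Ugt2b37 or on reads left uncounted.

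The promoters of the same 3 genes were close copies as well, which is why they are shown here. RefSeq (GRCm38.p6) gave a promoter for 9 of the 10 members, with Ugt3a2 not analysed here. Over the 250 bases before the start, Ugt2b37 and Ugt2b38 matched at 225 of 236 aligned bases (95.3%), and Ugt2b5 matched Ugt2b37 at 88.5% and Ugt2b38 at 88.3% of aligned bases. Ugt3a1, the member of another family, aligned with the Ugt2 promoters at 63.2% to 75.3%. The 140 bases before the start of these 3 genes are printed 5′ to 3′ on the strand of the gene, the minus strand in each case. Capitals mark the longest run of bases that all 3 share without a change. The windows are chr5:87254789-87254928 for Ugt2b37, chr5:87424204-87424343 for Ugt2b38 and chr5:87140341-87140480 for Ugt2b5.
Ugt2b37: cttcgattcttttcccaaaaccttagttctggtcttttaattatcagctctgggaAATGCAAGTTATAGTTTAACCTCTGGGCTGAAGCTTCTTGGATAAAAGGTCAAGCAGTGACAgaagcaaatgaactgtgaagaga
Ugt2b38: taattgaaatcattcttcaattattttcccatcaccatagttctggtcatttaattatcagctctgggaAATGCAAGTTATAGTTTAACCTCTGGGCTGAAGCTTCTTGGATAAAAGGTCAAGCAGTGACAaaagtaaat
Ugt2b5: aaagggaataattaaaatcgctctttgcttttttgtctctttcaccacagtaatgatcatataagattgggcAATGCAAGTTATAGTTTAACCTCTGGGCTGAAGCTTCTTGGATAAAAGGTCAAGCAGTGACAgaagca

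The shared run was 62 bases long and ended 24 bases before the RefSeq start of Ugt2b37, 10 before that of Ugt2b38 and 7 before that of Ugt2b5. Searched on both strands, the run occurred in 3 of 32841 RefSeq promoters of the same length, those of these genes. The run describes these letters and shows no binding. The 3 genes did not move together in the values that follow, where Ugt2b37 went one way and Ugt2b38 and Ugt2b5 the other.

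In units of 1000000 counts, the libraries held 11.1 to 21.7 in MCD anti-DBI, 10.3 to 15.8 in MCD IgG, 10.5 to 14.0 in RCD anti-DBI and 8.36 to 13.4 in RCD IgG. Levels are counts per 1000000 (CPM) scaled by TMM, edgeR's correction for composition. Of 10 hepatocyte markers, 9 were found in the table, with a summed level of 87843 to 191979 CPM over the 30 livers, and 4 kidney tubule markers summed to at most 0.381 CPM in any liver. Replicates 5 and 10 of the MCD anti-DBI group had almost the same profile. Their counts differed by 1.82 in chi-square per degree of freedom, more than the sampling noise of 1, against 8.95 in the next closest pair of 1 group. Whether they are 1 mouse or 2 was not settled, and both were kept. Summed to 1 library, they left 8 members called in MCD anti-DBI versus MCD IgG and 8 in MCD anti-DBI versus RCD IgG, as with both kept, and 6 instead of 7 in MCD anti-DBI versus RCD anti-DBI.

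Per length of transcript, Ugt2b5 was the leading member on chow. In RCD IgG livers the mean level per kb was 352 ± 23.8 CPM for Ugt2b5, 226 ± 8.45 for Ugt2b36, 223 ± 34.8 for Ugt2b1, 165 ± 10.5 for Ugt2b34, 154 ± 12.4 for Ugt3a2, 129.8 ± 7.84 for Ugt2a3, 76.8 ± 8.18 for Ugt2b35, 25.8 ± 3.93 for Ugt3a1, 5.87 ± 4.92 for Ugt2b38 and 0.314 ± 0.107 for Ugt2b37 (SD, n = 5). In this order Ugt2b36 and Ugt2b1, and likewise Ugt2b34 and Ugt3a2, did not differ beyond their spread. In MCD IgG livers Ugt2b34 led with 155 ± 20.5 CPM per kb, ahead of Ugt2b5 with 118 ± 5.23 (SD, n = 10). In MCD anti-DBI livers these 2 genes stood at 161 ± 15.2 and 175 ± 20.8 CPM per kb, within their spread. With the longest in place of the canonical transcript Ugt2b34 stood lower, at 109.8 CPM per kb in MCD IgG livers, below Ugt2b5. Ugt2b37 and Ugt2b38 together made up under 1% of the summed level per kb of the members in every group.

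**Figure D1:**
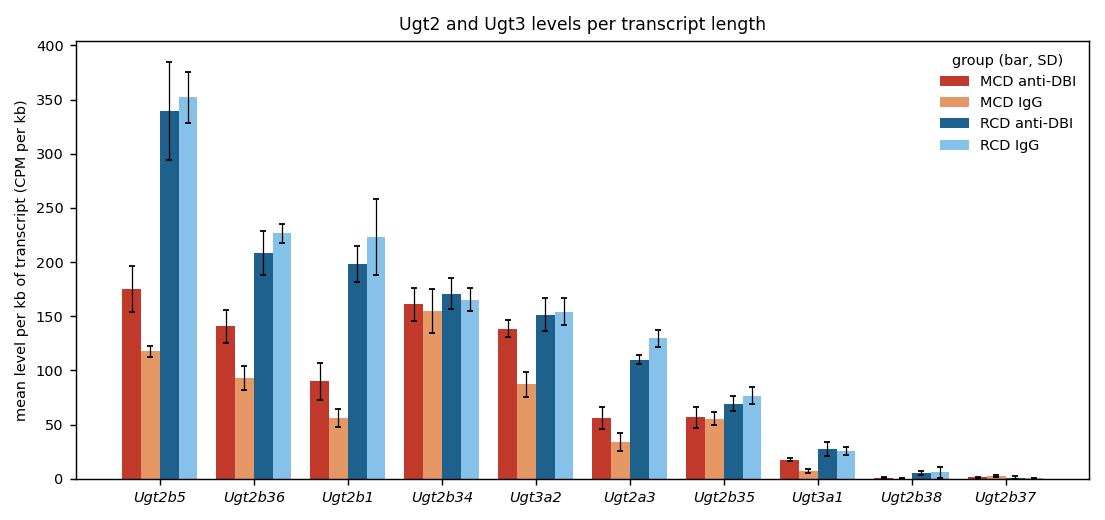
Mean level per kb of canonical transcript (y axis, CPM per kb) of the 10 genes (x axis, ordered by their level in RCD IgG) in the 4 groups, with the SD over livers as bars, cut at 0. Ugt2b5 stood highest on chow at 352 CPM per kb in RCD IgG livers, while Ugt2b34 was at 155 to 171 CPM per kb in every group.

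Most members were lower on MCD, and most of these stood higher again, though rarely at the chow level, in livers of mice given the antibody. Of 10 members tested, 1 was higher and 8 were lower in MCD IgG than in RCD IgG livers at an adjusted p under 0.05, where 29.9% of all 13672 genes tested were higher and 27.2% lower. The median log2 fold change of the members was -1.42, beside 0.03 for all genes. Fewer hepatocytes and less RNA per hepatocyte cannot be told apart in these bulk samples. In MCD anti-DBI against MCD IgG livers, 7 of the 10 members were higher and 1 was lower, where 20.4% of 13538 genes were higher and 21.7% lower. The members' median was 0.62, beside -0.02 for all genes. The MCD IgG libraries enter both comparisons, so a spread in their level moves the values of both in opposite directions. Summed over the 10 genes, the level was 2300.4 ± 177 CPM in MCD anti-DBI, 1711 ± 46.7 CPM in MCD IgG, 3452 ± 289.9 CPM in RCD anti-DBI and 3661 ± 190.2 CPM in RCD IgG livers (SD), a sum that the abundant genes dominate.

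**Figure D2:**
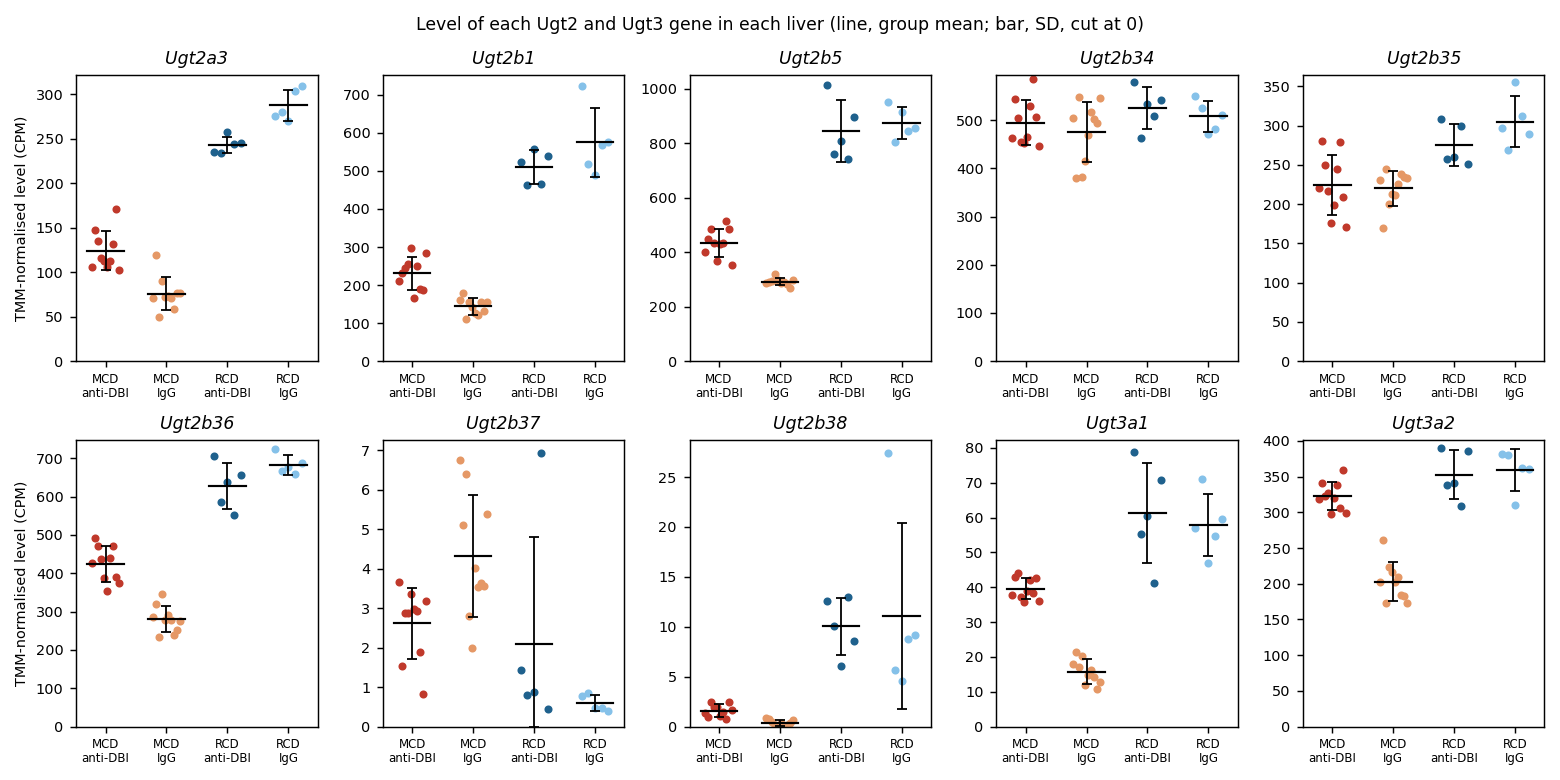
TMM-normalised level (y axis, CPM, linear from 0) of each gene in each liver (points) by group (x axis), with the group mean as a line and the SD as a bar cut at 0. Ugt2b5, Ugt2b36, Ugt3a1 and Ugt3a2 show MCD anti-DBI livers all above MCD IgG livers, Ugt2b34 shows 4 overlapping groups, and Ugt2b37 is the gene whose MCD IgG livers all lie above RCD IgG livers. The share of all genes whose groups lie apart was not computed.

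Ugt2a3, Ugt2b1, Ugt2b5 and Ugt2b36 shared 1 pattern. Ugt2a3, whose human counterpart conjugates bile acids, measured 103 (lowest), 114 (median) and 171 CPM (highest) in MCD anti-DBI livers and 49.96 (lowest), 72.6 (median) and 119 CPM (highest) in MCD IgG livers. On chow, Ugt2a3 measured 235, 234, 257, 244 and 246 CPM in RCD anti-DBI livers and 276, 280.4, 269.7, 303 and 309 CPM in RCD IgG livers. All MCD livers lay below all RCD livers, and 4 of 10 MCD anti-DBI livers lay above every MCD IgG liver. Overlap of groups describes each member here and below, and how often groups lie apart over all genes was not computed. The log2 fold change was 0.70 ± 0.12 (SE) in MCD anti-DBI versus MCD IgG (edgeR adjusted p = 0.000128) and -1.91 ± 0.13 in MCD IgG versus RCD IgG (adjusted p = 1.82e-09). As group means, Ugt2a3 stood at 43.2% of the RCD IgG level in MCD anti-DBI and at 26.4% in MCD IgG livers.

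Ugt2b1, whose rat counterpart conjugates bisphenol A, measured 165 (lowest), 238 (median) and 297 CPM (highest) in MCD anti-DBI livers and 109.9 (lowest), 149 (median) and 179.5 CPM (highest) in MCD IgG livers. Its chow values were 524, 464, 559, 465 and 539 CPM in RCD anti-DBI livers and 722, 519, 490.3, 567.7 and 575 CPM in RCD IgG livers. All but 1 of the MCD anti-DBI livers exceeded every MCD IgG liver, and none reached the chow range. The log2 fold change of Ugt2b1 was 0.67 ± 0.10 (SE) in MCD anti-DBI versus MCD IgG (edgeR adjusted p = 3.37e-05) and -1.99 ± 0.11 in MCD IgG versus RCD IgG (adjusted p = 4.36e-11). Its mean was 40.2% of the RCD IgG level in MCD anti-DBI and 25.0% in MCD IgG livers.

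Ugt2b5, the most abundant member per length on chow, measured 352 (lowest), 435 (median) and 515 CPM (highest) in MCD anti-DBI livers and 269.6 (lowest), 290.1 (median) and 321 CPM (highest) in MCD IgG livers. The chow values of Ugt2b5 were 1015, 759, 809, 743 and 897 CPM in RCD anti-DBI livers and 953, 804, 916, 845 and 857 CPM in RCD IgG livers. The MCD anti-DBI livers lay above all MCD IgG livers and below all chow livers, and the 10 MCD IgG livers were close together (coefficient of variation 4.45%). Ugt2b5 differed by 0.56 ± 0.06 (log2, SE) in MCD anti-DBI versus MCD IgG (edgeR adjusted p = 8.7e-07) and by -1.57 ± 0.06 in MCD IgG versus RCD IgG (adjusted p = 3.82e-13).

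Ugt2b36 measured 354 (lowest), 432 (median) and 492 CPM (highest) in MCD anti-DBI livers and 233 (lowest), 278 (median) and 345 CPM (highest) in MCD IgG livers. In RCD anti-DBI livers Ugt2b36 was at 707, 586, 638, 552 and 657 CPM, and in RCD IgG livers at 723, 667, 678, 658 and 687 CPM. Again the 3 ranges of MCD anti-DBI, MCD IgG and chow livers were apart. Ugt2b36 differed by 0.59 ± 0.08 (log2, SE) in MCD anti-DBI versus MCD IgG (edgeR adjusted p = 4.74e-06) and -1.27 ± 0.08 in MCD IgG versus RCD IgG (adjusted p = 5.75e-10).

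Among the members that were lower on MCD and higher with the antibody, the neighbours Ugt3a1 and Ugt3a2 came closest to the RCD IgG level, with means of 68.5% and 89.9% of RCD IgG livers in MCD anti-DBI livers, against 27.2% and 56.5% in MCD IgG livers. Ugt3a1 measured 35.8 (lowest), 38.6 (median) and 44.1 CPM (highest) in MCD anti-DBI livers and 10.8 (lowest), 15.6 (median) and 21.5 CPM (highest) in MCD IgG livers. On chow Ugt3a1 was at 78.9, 55.4, 60.3, 41.4 and 70.7 CPM in RCD anti-DBI livers and at 56.9, 71.2, 46.9, 54.8 and 59.5 CPM in RCD IgG livers. The lowest MCD anti-DBI liver was above the highest MCD IgG liver, all MCD anti-DBI livers were below the RCD IgG livers, and 4 of them exceeded the lowest RCD anti-DBI liver. With 1.32 ± 0.10 (log2, SE, edgeR adjusted p = 1.39e-08), or 2.50-fold, Ugt3a1 had the smallest adjusted p of the members in MCD anti-DBI versus MCD IgG. In MCD IgG versus RCD IgG it differed by -1.87 ± 0.13 (adjusted p = 2.71e-09).

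Ugt3a2 measured 298 (lowest), 322 (median) and 359 CPM (highest) in MCD anti-DBI livers and 173 (lowest), 203 (median) and 262 CPM (highest) in MCD IgG livers. RCD anti-DBI livers had 391, 339, 341, 309 and 386 CPM and RCD IgG livers 382, 380.5, 311, 362 and 361 CPM of Ugt3a2. The MCD anti-DBI livers were all above the MCD IgG livers, and 7 of 10 reached into the RCD IgG range. The log2 fold change of Ugt3a2 was 0.66 ± 0.07 (SE) in MCD anti-DBI versus MCD IgG (edgeR adjusted p = 3.65e-07) and -0.81 ± 0.09 in MCD IgG versus RCD IgG (adjusted p = 4.93e-07).

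Ugt2b37 and Ugt2b38 were near the lower end of what these libraries can measure, and between MCD IgG and MCD anti-DBI or RCD IgG livers they moved in opposite directions. Within groups they did not, with r on log2(CPM + 1) of 0.857 in MCD IgG and -0.005 in MCD anti-DBI livers. In RCD anti-DBI and RCD IgG livers r was 0.630 and 0.303. What part shared reads have in this was not tested. Ugt2b38 measured 0.754 (lowest), 1.56 (median) and 2.49 CPM (highest) in MCD anti-DBI livers (8 to 45 counts) and 0.0561 (lowest), 0.311 (median) and 0.838 CPM (highest) in MCD IgG livers (1 to 14 counts). On chow Ugt2b38 was at 12.5, 10.0, 6.10, 13.0 and 8.52 CPM in RCD anti-DBI livers and at 27.4, 5.65, 4.58, 8.75 and 9.17 CPM in RCD IgG livers. The MCD livers all lay below the chow livers, and 9 of 10 MCD anti-DBI livers lay above every MCD IgG liver. RCD IgG 1 stood apart from the other chow livers with 27.4 CPM (212 counts). The log2 fold change of Ugt2b38 was 2.03 ± 0.33 (SE) in MCD anti-DBI versus MCD IgG (edgeR adjusted p = 6.62e-05) and -4.77 ± 0.44 in MCD IgG versus RCD IgG (adjusted p = 6.3e-08), which was -4.14 without RCD IgG 1 (adjusted p = 8.97e-08).

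Ugt2b37 measured 0.831 (lowest), 2.91 (median) and 3.67 CPM (highest) in MCD anti-DBI livers (15 to 63 counts) and 2.00 (lowest), 3.83 (median) and 6.77 CPM (highest) in MCD IgG livers (23 to 113 counts). Ugt2b37 on chow was at 1.43, 0.795, 0.872, 6.92 and 0.444 CPM in RCD anti-DBI livers and at 0.774, 0.848, 0.477, 0.481 and 0.390 CPM in RCD IgG livers (4 to 9 counts). It was the 1 member higher in MCD IgG than in RCD IgG livers, with no overlap, and the 1 member lower in MCD anti-DBI than in MCD IgG livers, where the groups overlapped. Ugt2b37 passed the filter on low counts through MCD livers, where it was higher, so the filter favoured its calls against RCD IgG livers. RCD anti-DBI 4 had 88 counts of Ugt2b37, against 5 to 19 in the other 4 livers of its group, and lay above all MCD livers in CPM. Ugt2b37 differed by -0.73 ± 0.23 (log2, SE) in MCD anti-DBI versus MCD IgG (edgeR adjusted p = 0.0133, and 0.051 with all 30 libraries in 1 fit) and 2.88 ± 0.33 in MCD IgG versus RCD IgG (adjusted p = 8.92e-07).

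**Figure D3:**
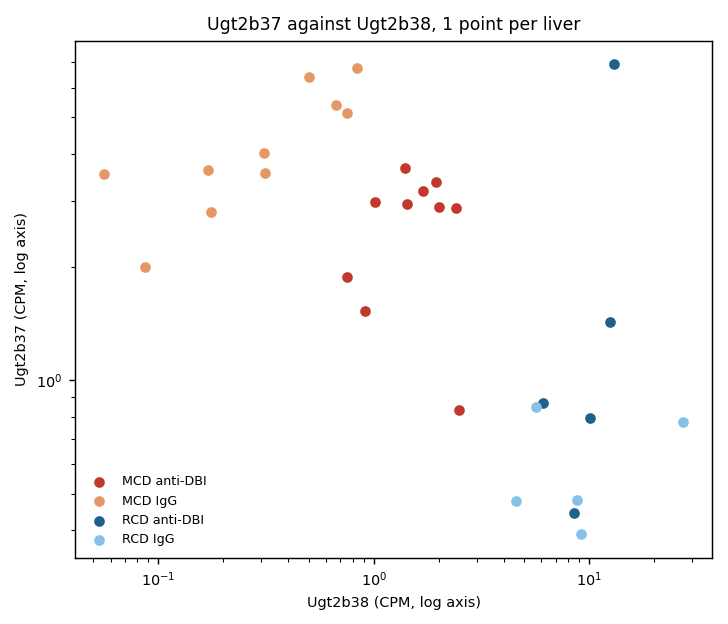
Level of Ugt2b37 (y axis, CPM, log) against Ugt2b38 (x axis, CPM, log), 1 point per liver, coloured by group. MCD IgG livers sit at the upper left (Ugt2b38 at 0.0561 to 0.838 CPM), MCD anti-DBI livers between, and chow livers at the right. Of these, RCD anti-DBI 4 stands at the top, with 6.92 CPM of Ugt2b37 and 13.0 CPM of Ugt2b38.

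In MCD anti-DBI versus MCD IgG and in MCD IgG versus RCD IgG, Ugt2b34 and Ugt2b35 had the smallest log2 fold changes of the members, and both lie in the cluster among members that were lower on MCD. Ugt2b34 measured 445 (lowest), 484 (median) and 584 CPM (highest) in MCD anti-DBI livers and 379 (lowest), 498 (median) and 548 CPM (highest) in MCD IgG livers. Its chow values were 579, 463, 533, 508 and 541 CPM in RCD anti-DBI livers and 549.7, 525, 470.5, 481 and 511 CPM in RCD IgG livers. All 4 groups overlapped. The log2 fold change of Ugt2b34 was 0.04 ± 0.08 (SE) in MCD anti-DBI versus MCD IgG (edgeR adjusted p = 0.667) and -0.08 ± 0.09 in MCD IgG versus RCD IgG (adjusted p = 0.457). Its standard errors were of the same order as those of Ugt2b5 and Ugt2b36.

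Ugt2b35 measured 171 (lowest), 218 (median) and 279.8 CPM (highest) in MCD anti-DBI livers and 169.6 (lowest), 228 (median) and 245 CPM (highest) in MCD IgG livers. Chow livers had 309, 258, 260.2, 299 and 252 CPM (RCD anti-DBI) and 297, 269, 356, 312 and 289 CPM (RCD IgG) of Ugt2b35. The MCD groups overlapped, while all MCD IgG livers were below the RCD IgG livers. Ugt2b35 differed by 0.02 ± 0.09 (log2, SE) in MCD anti-DBI versus MCD IgG (edgeR adjusted p = 0.905) and by -0.46 ± 0.08 in MCD IgG versus RCD IgG (adjusted p = 0.00015).

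**Figure D4:**
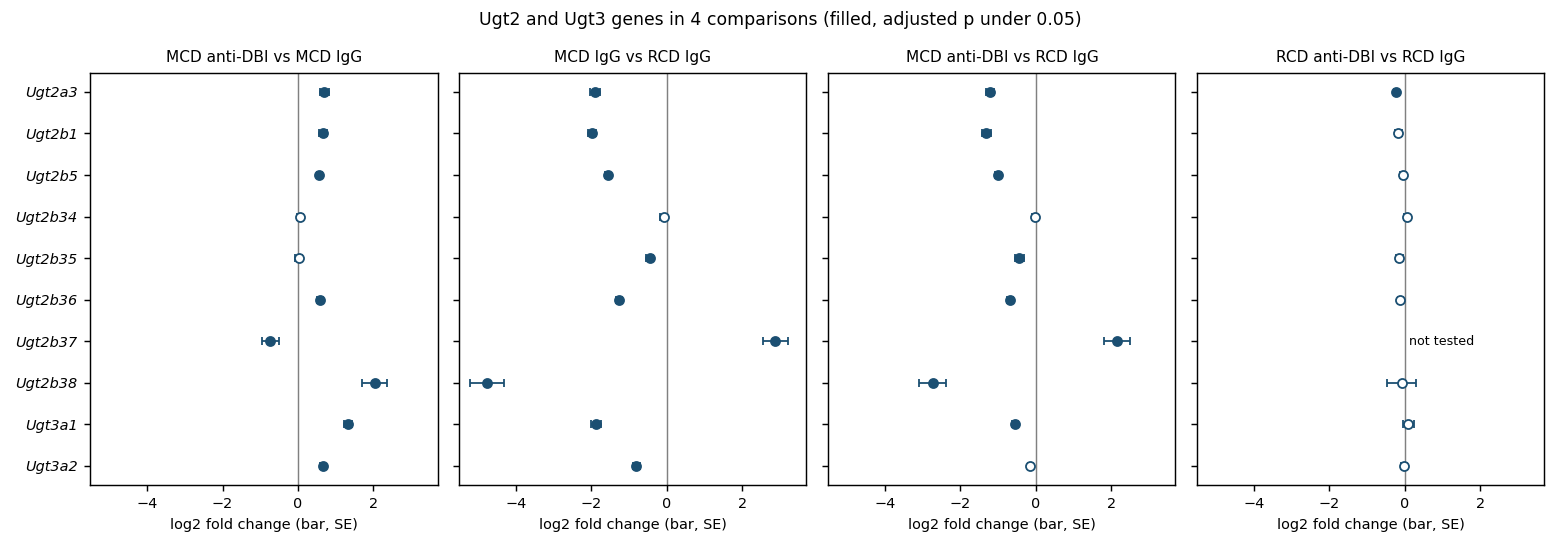
Log2 fold change (x axis) of each gene (rows) with its SE as a bar in 4 comparisons, filled where edgeR's adjusted p was under 0.05. Most genes lie right of 0 in MCD anti-DBI versus MCD IgG and left of 0 in MCD IgG versus RCD IgG, with Ugt2b37 the other way (-0.73 and 2.88) and Ugt2b34 at 0.04 and -0.08.

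Under the antibody the MCD livers still differed from chow livers in most members. In MCD anti-DBI versus RCD IgG, 1 member was higher and 7 were lower, where 18.4% of 13912 genes were higher and 18.1% lower, with a members' median of -0.61 beside 0.01 for all genes. The log2 fold changes were -2.74 ± 0.35 (SE) for Ugt2b38, -1.31 ± 0.12 for Ugt2b1, -1.21 ± 0.10 for Ugt2a3, -1.01 ± 0.08 for Ugt2b5, -0.68 ± 0.08 for Ugt2b36, -0.54 ± 0.08 for Ugt3a1 and -0.44 ± 0.11 for Ugt2b35 (edgeR adjusted p at most 0.00549). Ugt2b38 was at -2.11 without RCD IgG 1. Ugt2b37 was higher, at 2.15 ± 0.36 (adjusted p = 0.000155). Ugt3a2 at -0.15 ± 0.06 (adjusted p = 0.0716) and Ugt2b34 at -0.04 ± 0.07 (adjusted p = 0.734) did not pass, and Ugt3a2 passed without RCD IgG 3 (-0.20, adjusted p = 0.0197), without MCD anti-DBI 9 (-0.17, adjusted p = 0.0352) and with DESeq2 (adjusted p = 0.045).

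With both diets under the antibody, MCD anti-DBI versus RCD anti-DBI, 7 members were lower and none was higher, where 18.5% of 13887 genes were higher and 18.4% lower, with a members' median of -0.60 beside 0.01 for all genes. Ugt2b38 differed by -2.62 ± 0.23 (log2, SE), Ugt2b1 by -1.14 ± 0.12, Ugt2a3 by -0.97 ± 0.10, Ugt2b5 by -0.95 ± 0.09, Ugt3a1 by -0.63 ± 0.11 and Ugt2b36 by -0.56 ± 0.08 (edgeR adjusted p at most 0.000217). Ugt2b35 was at the threshold (-0.29 ± 0.11, adjusted p = 0.0494) and lost the call in 16 alternatives, among them the removal of any 1 of the 5 RCD anti-DBI livers (adjusted p = 0.0541 to 0.128). Ugt2b37, at 0.30 ± 0.48 (adjusted p = 0.665), rested on RCD anti-DBI 4. Without that library it was higher in MCD anti-DBI livers by 1.54 on the log2 scale (adjusted p = 0.00499). Ugt2b34 and Ugt3a2 did not pass (adjusted p = 0.42 and 0.155). These comparisons share the MCD anti-DBI libraries with those above.

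On chow the antibody was followed by little difference in the members. In RCD anti-DBI versus RCD IgG, 1 of 9 members tested was lower and none was higher, where 3.15% of 12699 genes were lower and 2.93% higher, with a median of -0.09 beside 0.00 for all genes. That member was Ugt2a3, at -0.24 ± 0.06 (log2, SE, edgeR adjusted p = 0.0222), with all 5 RCD anti-DBI livers below all 5 RCD IgG livers. Among the alternatives that ended the call were those without RCD IgG 4 (adjusted p = 0.0603), RCD IgG 5 (0.0712) or RCD anti-DBI 2 (0.0632), with no filter on low counts (0.0589) and with all 30 libraries in 1 fit (0.536). The other 8 members tested ranged from -0.17 (Ugt2b1) to 0.09 (Ugt3a1), and Ugt2b37 had too few counts on chow to be tested. The estimate of Ugt2b38, -0.09 ± 0.39, turned to 0.51 without RCD IgG 1 and passed in neither case.

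The antibody effect differed between the diets for most members. The interaction of antibody and diet, the effect on MCD minus that on RCD, passed for 8 of 10 members, 7 positive and 1 negative, where 10.6% of 14335 genes were positive and 8.63% negative, with a median of 0.71 beside 0.00 for all genes. It was 1.25 ± 0.19 for Ugt3a1, 0.95 ± 0.18 for Ugt2a3, 0.86 ± 0.17 for Ugt2b1, 0.72 ± 0.12 for Ugt2b36, 0.70 ± 0.11 for Ugt3a2 and 0.63 ± 0.11 for Ugt2b5 (log2, SE, edgeR adjusted p at most 0.00078). For Ugt2b38 it was 2.17 ± 0.54 (adjusted p = 0.00527), 1.54 without RCD IgG 1 (adjusted p = 0.0189) and 0.81 with limma on log2(CPM + 1), where it no longer passed (adjusted p = 0.0883). The interaction of Ugt2b37, -2.57 ± 0.66 (adjusted p = 0.0066), was -1.34 without RCD anti-DBI 4 and no longer passed (adjusted p = 0.0873). This 1 negative member had too few counts on chow to be tested there and entered the fit through its MCD livers. The share of all genes is therefore no fair comparison for its call. Ugt2b34 at 0.01 ± 0.12 and Ugt2b35 at 0.17 ± 0.14 did not pass (adjusted p = 0.973 and 0.432).

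Across the 30 livers, the 7 members other than Ugt2b34, Ugt2b35 and Ugt2b37 correlated with each other at r = 0.756 to 0.965 on log2(CPM + 1), which holds the differences between the 4 groups. After subtracting each group's mean, the same pairs ranged from -0.164 to 0.698. The highest value was that of Ugt3a1 and Ugt3a2, neighbours that share sequence. These are descriptions over livers that share libraries and scaling.

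The genes with the most similar pattern over the 30 livers were the following. Ugt2a3 was most like Ces2a, Scnn1a and Aldh7a1 (r = 0.974 to 0.983, and 0.740 to 0.786 within groups). Ugt2b1 was most like Mup3, Serpina1c and Slc22a28 (r = 0.973 to 0.976, and 0.623 to 0.657 within groups), and Ugt2b5 most like Aadac, Mup3 and Akr1c13 (r = 0.974 to 0.978, and 0.212 to 0.583 within groups). Both had Mup3, a major urinary protein, among the 3. For Ugt2b36 they were Galm, Slc22a30 and Cyp2c67 (r = 0.981 to 0.983, and 0.798 to 0.846 within groups). Ugt3a1 had Ndfip1, Fabp1 and Ces1f (r = 0.959 to 0.967, and 0.609 to 0.726 within groups), and Ugt3a2 had Aldh6a1, Ndfip1 and Rdh7 (r = 0.963 to 0.972, and 0.749 to 0.875 within groups). Ndfip1 stood among the 3 of both. Ugt2b38 was closest to Myo6, Cyp7b1 and Mup11 (r = 0.953 to 0.963, and 0.446 to 0.632 within groups) and Ugt2b37 to Selenoh, Lcn2 and Mfsd12 (r = 0.831 to 0.837, and 0.604 to 0.682 within groups). Ugt2b34 had Cbll1, Med19 and G3bp2 (r = 0.740 to 0.752, and 0.741 to 0.763 within groups), and Ugt2b35 had Dhx33 and Mis12 (r = 0.832 to 0.835, and 0.600 to 0.648 within groups). Mup3 and Mup11 belong to a family of near-identical copies, so their counts are uncertain.

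The other UGT genes tested moved mostly as the members did, whereas the supply and transporter genes given below moved less or in both directions. Of all genes tested, 20.4% were higher and 21.7% lower in MCD anti-DBI versus MCD IgG. In MCD IgG versus RCD IgG, 29.9% were higher and 27.2% lower. These shares stand beside the counts of this list and of those below. Of 12 other UGT genes, 7 could be tested in MCD anti-DBI versus MCD IgG, of which 4 were higher and 1 was lower (median 0.40), and in MCD IgG versus RCD IgG 1 was higher and 5 were lower of 6 tested (median -0.58). Ugt1a6b, a phenol-conjugating form, differed on the log2 scale by 0.66 ± 0.07 (adjusted p = 2.66e-07) in MCD anti-DBI versus MCD IgG and by -1.40 ± 0.08 (adjusted p = 1.13e-10) in MCD IgG versus RCD IgG (SE and edgeR). Ugt1a1, the bilirubin-conjugating enzyme, differed by 0.47 ± 0.08 (adjusted p = 0.000117) and by -0.49 ± 0.09 (adjusted p = 0.00017) in the same 2 comparisons. Ugt1a7c ran the other way, at -1.21 ± 0.28 (adjusted p = 0.00148) and 2.27 ± 0.40 (adjusted p = 0.000109). The Ugt1a genes share their last exons, which makes the split of their counts uncertain, and Ugt2a1 and Ugt2a2 had no count in any liver.

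None of 6 genes listed for UDP-glucuronic acid supply passed in MCD anti-DBI versus MCD IgG (median 0.02). The list holds enzymes and carriers of nucleotides or nucleotide sugars, and not every carrier on it is known to carry UDP-glucuronic acid. Ugdh, which makes UDP-glucuronic acid, was at 0.15 ± 0.12 (adjusted p = 0.336) there and at -0.31 ± 0.14 (adjusted p = 0.0694) in MCD IgG versus RCD IgG (edgeR). In the diet comparison 1 of the 6 passed, Slc35b1, an endoplasmic reticulum nucleotide carrier, at 0.70 ± 0.13 (adjusted p = 0.000168). Ugp2, which makes UDP-glucose, was the 1 of the 6 that was lower in RCD anti-DBI versus RCD IgG, by -0.62 ± 0.08 (adjusted p = 0.000517). Gusb, the enzyme that cleaves glucuronides, moved against most members, at -0.47 ± 0.09 (adjusted p = 0.000476) in MCD anti-DBI versus MCD IgG and 0.54 ± 0.11 (adjusted p = 0.000577) in MCD IgG versus RCD IgG.

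Among 7 transporters of glucuronides and related anions, 2 were higher and 1 was lower in MCD anti-DBI versus MCD IgG (median 0.07), and 2 were higher and 3 lower in MCD IgG versus RCD IgG (median -0.16). Abcc4, an export pump of the blood side, differed by -2.08 ± 0.15 (adjusted p = 5.65e-09) with the antibody and by 3.02 ± 0.13 (adjusted p = 2.91e-12) with the diet (log2, SE, edgeR). The uptake carrier Slco1a1 went the opposite way, at 2.24 ± 0.32 (adjusted p = 1.33e-05) and -4.92 ± 0.28 (adjusted p = 1.4e-10). Abcc2, the pump for conjugates at the bile canaliculus, passed in neither, at -0.11 ± 0.08 (adjusted p = 0.299) and -0.16 ± 0.07 (adjusted p = 0.0761).

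Of 12 tested transcription factors known to act on Ugt genes, 4 were higher in MCD anti-DBI versus MCD IgG (median 0.06) and 7 were lower in MCD IgG versus RCD IgG (median -0.46), with none in the opposite direction. Nr1h4, the bile acid receptor, differed by 0.38 ± 0.06 (adjusted p = 5.77e-05) and by -0.54 ± 0.08 (adjusted p = 1.47e-05) (log2, SE, edgeR), and Stat5b, a signal transducer of growth hormone, by 0.26 ± 0.07 (adjusted p = 0.00305) and by -0.69 ± 0.06 (adjusted p = 3.88e-08). Rxra and Hnf4a were the other 2 that were higher with the antibody, at 0.36 ± 0.10 (adjusted p = 0.00531) and 0.27 ± 0.08 (adjusted p = 0.0137). Ppara, Foxa3 and Foxa1 were lower in the diet comparison, at -0.86 ± 0.15, -0.64 ± 0.14 and -0.44 ± 0.13 (edgeR adjusted p at most 0.00561). With the antibody these did not pass, at 0.10 ± 0.14, -0.02 ± 0.18 and -0.18 ± 0.10 (adjusted p = 0.586, 0.93 and 0.151). The median of all genes tested was -0.02 in the antibody comparison, where 20.4% were higher and 21.7% lower. It was 0.03 in the diet comparison, where 29.9% were higher and 27.2% lower.

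Cell type markers moved with the same groups. Beside the marker counts, 20.4% of all genes were higher and 21.7% lower in MCD anti-DBI versus MCD IgG. In MCD IgG versus RCD IgG, 29.9% of all genes were higher and 27.2% lower. Of 9 hepatocyte markers, 7 were higher and none lower in MCD anti-DBI versus MCD IgG (median 0.50, edgeR), with a summed level of 134465 to 191979 CPM in MCD anti-DBI and 87843 to 147983 CPM in MCD IgG livers, and of 95132 to 122979 CPM in RCD anti-DBI and 114813 to 140268 CPM in RCD IgG livers. Among them 1 was higher and 5 lower in MCD IgG versus RCD IgG. Of 8 macrophage and monocyte markers, 7 were lower in MCD anti-DBI versus MCD IgG, with sums of 188 to 1139.7 CPM in MCD anti-DBI and 293 to 1898 CPM in MCD IgG livers, and of 176 to 321 CPM in RCD anti-DBI and 156 to 218 CPM in RCD IgG livers. Among them 6 were higher in MCD IgG versus RCD IgG. Of 7 stellate cell and fibroblast markers, 5 were lower in the antibody comparison and 6 higher in the diet comparison. Endothelial markers were lower in 5 of 6 cases in MCD IgG versus RCD IgG, and 1 was higher and 1 lower with the antibody on MCD. No Kupffer cell, cholangiocyte, lymphocyte or enterocyte marker passed in MCD anti-DBI versus MCD IgG, and both neutrophil markers tested were lower. In MCD IgG versus RCD IgG, 3 of 5 cholangiocyte markers (median 0.87), both neutrophil markers (median 3.11) and both enterocyte markers tested (median 1.84) were higher, and of 5 Kupffer cell markers 1 was higher and 2 were lower (median -0.35). In either comparison no kidney tubule marker had enough counts to be tested, with Slc12a1 and Kap at 0 in every liver. The part of these shifts in the levels of the members was not tested.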

How the data were processed

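Livers of 30 mice in 4 groups were profiled by bulk RNAseq. The authors deposited 1 table of raw counts per gene, made per its header with STAR and featureCounts on the Ensembl GRCm38 annotation (printed there as GRCh38), while the study's methods name HISAT2 and GRCm39. The deposited counts were used as they are, and the authors' DESeq2-normalized counts and fold change and p value columns were not. The libraries held 8.36 to 21.7 counts in units of 1000000, and low counts limit Ugt2b37 and Ugt2b38.

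The main test was edgeR 4.0.16 (quasi-likelihood, TMM, filterByExpr) over all genes that passed the filter, 1 fit for each pair of groups and 1 fit of all libraries for the interaction. P values were adjusted by Benjamini-Hochberg over all genes tested, with 0.05 as the threshold. All 10 members are named, with the pathway and marker lists and the 3 genes most alike for each member (highest Pearson's r of log2(CPM + 1) over the 30 livers, mean of at least 1 CPM, predicted genes left out). A gene of the transcription factor list and a gene of this naming rule are not reported here. Members and lists were chosen with earlier results of these data known. The code was tested on simulated counts.

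Alternatives were DESeq2 1.42.0, limma 3.58.1 on log2(CPM + 1), a replicate block, each library left out, 1 fit of all 30 libraries, scaling by RLE or by the upper quartile, dropping the filter, a filter of 10 or more counts throughout, and the sum of MCD anti-DBI 5 and 10. Promoters came from RefSeq, and transcripts, used for length and identity only, from a GRCm39 annotation matched by identifier. Dixon's ratio of gap to range was computed for each gene and group.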

Additional observations from a re-analysis of the deposited data

Results flagged for a closer look

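The level of Ugt2b37 in RCD anti-DBI 4 was 6.92 CPM, while the other 4 livers of its group had at most 1.43 CPM. The level of Ugt2b38 in RCD IgG 1 was 27.4 CPM, and the next liver of its group had 9.17 CPM. Each lay apart from its group by the ratio of its gap to the range. These were 2 of 40 sets of 1 gene and 1 group, where chance flags about 1 in 20. Both genes have few counts beside the other members. The flagged values were 88 counts of Ugt2b37, against 5 to 19 in the rest of the group, and 212 counts of Ugt2b38, against 48 to 109. Both libraries were kept in the main values.

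For 8 genes the antibody effect on MCD differed from that on RCD by the interaction term of edgeR, in log2 units. The difference was 0.95 for Ugt2a3 (adjusted p = 0.000564), 0.86 for Ugt2b1 (0.00078), 0.63 for Ugt2b5 (0.000292) and 0.72 for Ugt2b36 (0.000161). It was 1.25 for Ugt3a1 (4.5e-05) and 0.70 for Ugt3a2 (0.000134). For Ugt2b38 it was 2.17 (0.00527) and for Ugt2b37 -2.57 (0.0066), and these 2 values moved to 1.54 without RCD IgG 1 for Ugt2b38 and to -1.34 without RCD anti-DBI 4 for Ugt2b37 (adjusted p = 0.0189 and 0.0873). With limma on log2(CPM + 1) the difference for Ugt2b38 was 0.81 (adjusted p = 0.0883). Ugt2b37 had too few counts on chow for a test of the antibody there and entered the interaction fit through its MCD livers.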

How the results depend on the processing

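Of 1532 values of members under the alternatives, 1502 kept their direction and their side of the threshold or passed it in neither case, 26 lost the call, 4 gained it, and 0 calls turned round. A member not tested under an alternative gave no value there and is not among the 1532. With 10 or more counts throughout, 7 members were called in MCD anti-DBI versus MCD IgG (8 in the main fit) and 7 in MCD IgG versus RCD IgG (9). There were 6 in MCD anti-DBI versus RCD IgG (8), 5 in MCD anti-DBI versus RCD anti-DBI (7) and 6 for the interaction (8). The number of members called changed by over 1.5 times only in RCD anti-DBI versus RCD IgG, where 1 member (Ugt2a3) was called. It was 0 with no filter on low counts, 0 with all 30 libraries in 1 fit and 0 with the replicate block (Ugt2a3 adjusted p = 0.0528). With 1 library left out in turn, the number of members called was 8 to 8 in MCD anti-DBI versus MCD IgG, 9 to 9 in MCD IgG versus RCD IgG, 8 to 9 in MCD anti-DBI versus RCD IgG, 6 to 7 in MCD anti-DBI versus RCD anti-DBI, 0 to 1 in RCD anti-DBI versus RCD IgG and 7 to 8 for the interaction. Over all genes, RCD anti-DBI versus RCD IgG gave 772 calls, against 333 with all 30 libraries in 1 fit, 471 when RCD IgG 5 was left out and 470 when RCD anti-DBI 3 was. The cause was not tested. On log2(CPM + 1), whose pseudocount shrinks low genes, limma gave Ugt2b38 0.91 in MCD anti-DBI versus MCD IgG and 0.81 for the interaction (adjusted p = 0.0883), and Ugt2b37 1.73 in MCD IgG versus RCD IgG.

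Replicate numbers recur across the groups, and the livers of 1 number showed little common deviation (at most 2 of 10 pairs had a correlation over 0.1). Pairs of unlike number were not set beside them, so whether a number stands for anything shared was not settled. The fit with the replicate block called 8 members in MCD anti-DBI versus MCD IgG, 9 in MCD IgG versus RCD IgG, 8 in MCD anti-DBI versus RCD IgG, 6 in MCD anti-DBI versus RCD anti-DBI (without Ugt2b35, adjusted p = 0.0626) and 7 for the interaction (without Ugt2b37, adjusted p = 0.0535). Without the block and with all livers these numbers were 8, 9, 8, 7 and 8. The block fit kept only replicate numbers present in every group compared. In the comparisons of MCD with chow livers and in the interaction, it therefore left out the MCD livers without a chow liver of their number. The lost calls cannot be assigned to the block alone.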
